A study of Mus musculus with 2 samples.

Results

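Pml, Sp100, Sp110, Sp140, Daxx and Nmi code for proteins of the PML nuclear body or proteins that meet it, and these 6 genes of the 55536 annotated genes in the tables are described here. They were picked by symbol in the deposited tables of mouse macrophage RNA, with no measured value in the rule, and all 6 were found in both libraries by both of the deposited quantifications. Bone-marrow-derived macrophages of C57BL/6J mice, the only cells studied, had been given 100 ng/ml lipid A, the part of bacterial lipopolysaccharide that Toll-like receptor 4 senses, and 12 h later the agent was removed. After 12 h without it they met 100 ng/ml again, and 75 min later RNA was taken from the chromatin fraction, stripped of ribosomal RNA and sequenced. The single group has 2 libraries, replicates 1 and 2, made from 250 and 500 ng of RNA with the same donor entry, and the labels do not say that they came from separate cultures. Cells given lipid A once or not at all were not analysed here, so the values are levels and their spread, with no test of a treatment.

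PML is a RING-finger protein that SUMO modification and self-assembly turn into the shell of a nuclear body, and without it the bodies do not form. SP100 is another constant resident of these bodies, and SP110 and SP140 are its relatives, with a self-association domain at one end and chromatin-reading domains at the other. DAXX is drawn to the bodies by SUMO and, with ATRX, places histone H3.3 on chromatin. NMI binds STAT proteins and IFI35. In many cell types interferon raises the genes for PML, the SP100 family and NMI, and in mice the Sp110 and Sp140 genes lie in a region that affects resistance of macrophages to intracellular bacteria.

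The 5' flanks of Sp100 and Sp110 are shown because these genes lead the 6 by mean aligned level and because their windows hold the longest run of letters that any pair of the 6 genes' windows shared. The sequences are from RefSeq on GRCm38.p6, 5′ to 3′ on the strand of each gene, from 250 bases before its start to 50 bases from it. The Sp100 window is chr1:85649738-85650037 on the plus strand and the Sp110 window is chr1:85598761-85599060 on the minus strand. Capitals mark a stretch of 21 letters that the windows share with 2 differences.
Sp100: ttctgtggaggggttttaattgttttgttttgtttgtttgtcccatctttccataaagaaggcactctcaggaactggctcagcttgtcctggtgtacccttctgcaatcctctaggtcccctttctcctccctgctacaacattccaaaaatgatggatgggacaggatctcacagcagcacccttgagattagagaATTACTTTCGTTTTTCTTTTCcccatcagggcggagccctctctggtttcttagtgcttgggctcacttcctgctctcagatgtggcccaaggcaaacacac
Sp110: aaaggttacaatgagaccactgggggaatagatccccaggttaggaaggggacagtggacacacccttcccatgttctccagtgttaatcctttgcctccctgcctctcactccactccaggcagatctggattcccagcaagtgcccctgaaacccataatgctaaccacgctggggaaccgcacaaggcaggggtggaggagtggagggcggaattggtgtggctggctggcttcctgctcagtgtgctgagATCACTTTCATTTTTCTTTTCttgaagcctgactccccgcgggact
RefSeq lists another start for each gene. In the Sp100 window shown the marked stretch runs from 52 to 32 bases before the start (positions -52 to -32), whereas in the Sp110 window shown it runs from base 5 to base 25 after the start. The last 11 of its letters, TTTTTCTTTTC, were identical and occurred on either strand in 77 of 32544 windows of the same length, or 0.237%. This run was picked as the longest, and windows of Sp100 and Nmi, Sp100 and Pml, and Sp140 and Daxx each shared 10 letters. Within the stretch each window shown held 2 matches to the core AANNGAAA that interferon regulatory factors (IRF) bind, read on the opposite strand. Counted from the other Sp100 start, the same matches begin at -73 and -66, and the window of the other Sp110 start holds none. That core was also found in the windows of Pml and Nmi and not in those of Sp140 and Daxx, and it occurred in 23.9% of the 32544 windows. None of the 6 genes' windows held the longer interferon-stimulated response element, GAAA repeated after a gap of 2 letters, which contains the core and occurred in 3.45% of windows. None held the STAT site TTCNNNGAA, at 8.33% of windows, or the NF-kappaB site, GGGA and TTTCC with 1 letter between them, at 0.415%. All motifs were searched on both strands, they were chosen after the sequences had been seen, and a match describes letters only.

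The SP100 family dominated the set. By TPM (a transcript's share of the library, corrected for length), Sp110 averaged 278 ± 24.2 TPM, Sp100 269 ± 36.7 TPM and Sp140 257 ± 64.9 TPM (SD, n = 2, here and below), and together they held 81.1% of the summed level of the 6 genes. Daxx followed at 116 ± 15.1 TPM and Pml, the scaffold gene, at 61.0 ± 4.86 TPM. Nmi was the lowest at 9.99 ± 0.65 TPM, 27.8-fold below Sp110. The median of the 6 means was 186 TPM, against a median of 7.99 TPM for the 9615 expressed protein-coding genes, those with 1 TPM in at least 1 library. In that ranking Sp110, Sp100 and Sp140 took places 125, 134 and 148, Daxx place 437, Pml place 956 and Nmi place 4262. At least 100 TPM in both libraries was reached by 4 of the 6 genes, or 66.7%, against 4.67% of the 9615 genes. In bulk RNA of this kind, fewer cells that use a gene and less RNA per cell cannot be told apart.

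Sp110 (ENSMUSG00000070034.13, mm10 chromosome 1, bases 85576899 to 85598817, minus strand) had 260.92 TPM in replicate 1 and 295.17 TPM in replicate 2, from 7455 and 7672 expected counts. Sp100 (ENSMUSG00000026222.16, chromosome 1, bases 85649988 to 85709998, plus strand) had 294.94 and 243.04 TPM, from 6170 and 5052 counts. Sp140 (ENSMUSG00000070031.11, chromosome 1, bases 85600378 to 85645037, plus strand) had 210.76 and 302.51 TPM, from 4679 and 6461 counts. The order within the family was therefore not fixed: Sp100 led and Sp140 came last of these 3 genes in replicate 1, while Sp140 led and Sp100 came last in replicate 2. Their means differed by 1.03-fold between Sp110 and Sp100 and by 1.05-fold between Sp100 and Sp140, and the replicate values of both pairs overlapped.

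Daxx (ENSMUSG00000002307.16, chromosome 17, bases 33909414 to 33915590, plus strand) had 105.08 and 126.42 TPM, from 2951 and 3362 counts. Pml (ENSMUSG00000036986.16, chromosome 9, bases 58218076 to 58249786, minus strand) had 64.46 and 57.59 TPM, from 2636 and 2155 counts. Nmi (ENSMUSG00000026946.9, chromosome 2, bases 51948487 to 51973494, minus strand) had 9.53 and 10.45 TPM, from only 123 and 113 counts. Below the family the order was the same in both libraries. The mean of Sp140 was 2.22-fold that of Daxx, Daxx 1.90-fold that of Pml and Pml 6.11-fold that of Nmi, and none of these neighbouring pairs overlapped.

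**Figure D1:**
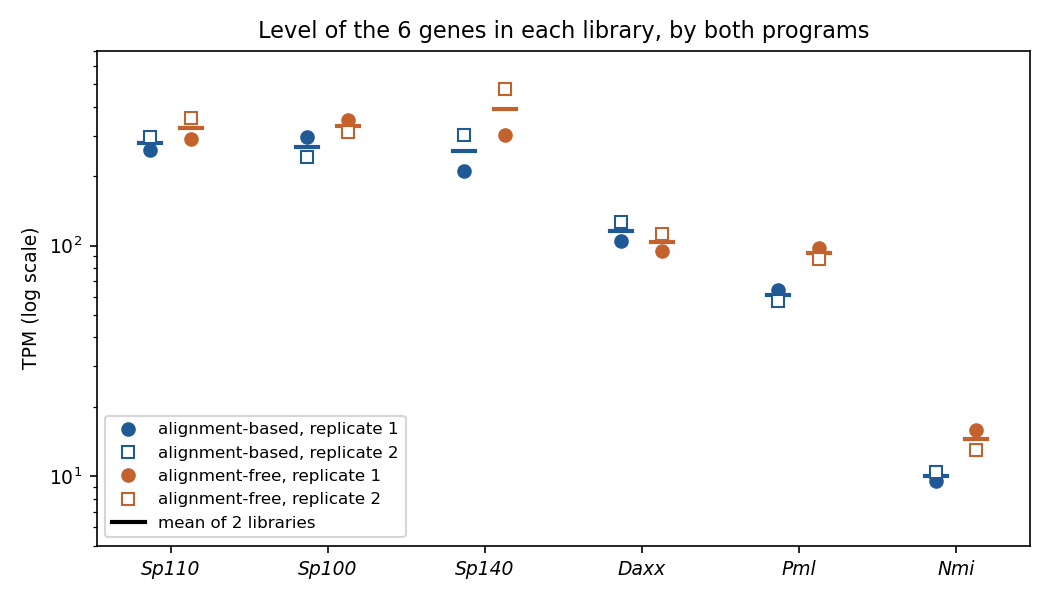
Level of each gene in TPM on a log scale, for replicate 1 (filled circles) and replicate 2 (open squares), from the alignment-based tables (blue) and the alignment-free tables (orange), with bars at the mean of 2 libraries. The Sp110, Sp100 and Sp140 values lie between 210.76 and 302.51 TPM by alignment and overlap. Daxx, Pml and Nmi form separate steps below them by alignment, but Daxx and Pml overlap in the alignment-free values.

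The alignment-free values gave the family as high and changed the order of its means. Sp140 led the alignment-free means with 391 ± 124 TPM, from 303 TPM in replicate 1 and 479 TPM in replicate 2. Sp100 followed at 331 ± 29.0 TPM, from 351 and 310 TPM, and Sp110 at 324 ± 48.3 TPM, from 290 and 358 TPM. By both programs Sp100 led the family in replicate 1, and the order in replicate 2 was Sp140, Sp110, Sp100. The alignment-free replicate values of the family overlapped. Pml stood at 97.3 and 87.8 TPM, against 94.5 and 113 TPM for Daxx, so these 2 genes overlapped in the alignment-free tables and did not in the alignment-based ones. Nmi had 15.9 and 13.0 TPM and stayed the lowest. Alignment-free counts exceeded aligned counts by 1.44-fold for Daxx, the smallest factor of the 6, and by 2.42-fold for Nmi, the largest, against a median of 1.66-fold over 6747 protein-coding genes averaging 100 counts or above.

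Between the libraries, 0 of the 6 genes passed a 2-fold difference in scaled counts, where 7.06% of the 13227 genes tested, each with 10 counts or above in both libraries, did. The log2 ratio of replicate 2 over replicate 1 was highest for Sp140, at 0.60 with a 95% interval of 0.54 to 0.65. It was 0.32 (0.25 to 0.39) for Daxx and 0.17 (0.13 to 0.22) for Sp110. Sp100 had -0.16 (-0.21 to -0.10) and Pml had -0.16 (-0.24 to -0.07). Neighbours in the same gene cluster therefore moved in opposite directions between libraries of the same treatment. The ratio of Nmi was 0.01 (-0.37 to 0.39), and its sign changed to -0.01 with the size factors of DESeq2, -0.06 with total counts and -0.35 with alignment-free counts. These intervals cover counting error only and compare 2 libraries, not conditions. The ratio of Sp140 was above that of 88.8% of the 13227 genes, and the ratios of the other 5 genes lay between 36.6% and 75.8%.

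**Figure D2:**
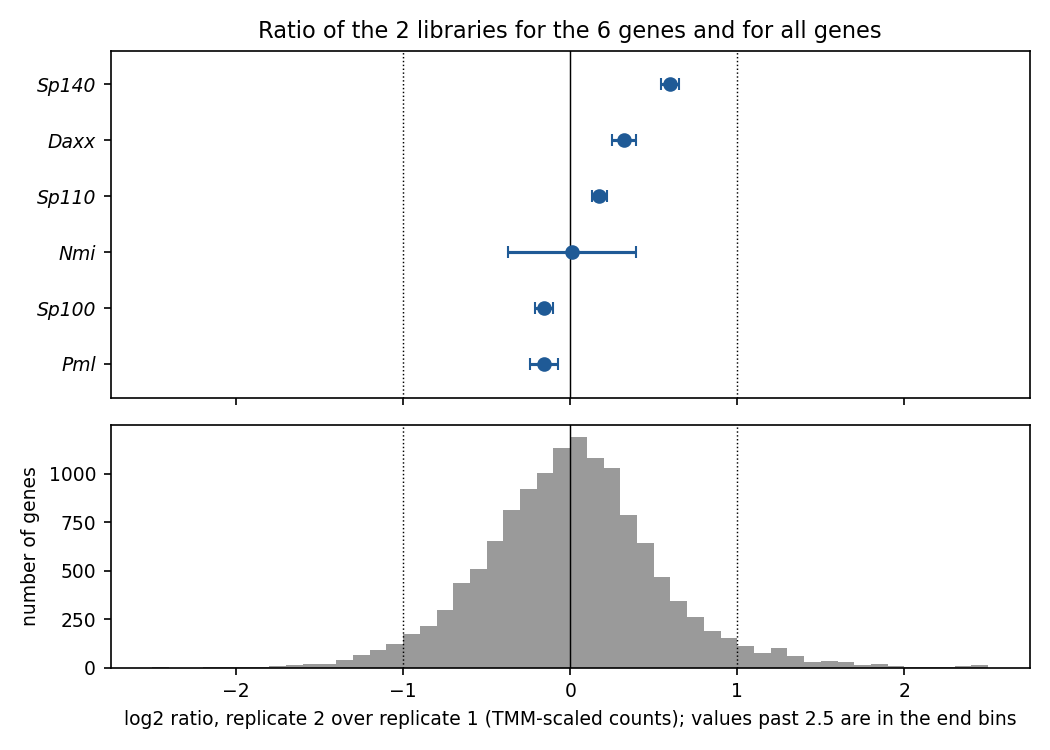
Log2 ratio of replicate 2 over replicate 1 for each gene with its 95% counting interval (upper panel), above the distribution of the same ratio over the 13227 genes tested (lower panel, number of genes). Dotted lines mark 2-fold, and all 6 genes lie between them, from -0.16 for Pml to 0.60 for Sp140.

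In the alignment-based tables Sp110 was the one gene of the 6 whose largest isoform class was not protein coding. Isoforms annotated as retained intron, which can take reads of RNA not yet spliced, held 73.4% of its TPM in replicate 1 and 73.2% in replicate 2. The same class held 33.0 ± 2.90% for Sp100, 32.6 ± 5.74% for Pml, 16.8 ± 1.43% for Sp140, 16.6 ± 6.04% for Nmi and 14.2 ± 5.18% for Daxx. Across 5998 protein-coding genes that have such an isoform and average 1 TPM or above, the median was 45.1%, with quartiles at 27.9% and 61.3%. Sp110 was above 88.8% of those genes, while Sp140, Nmi and Daxx were above 12.5%, 12.3% and 10.2% of them. Alignment-free shares were 56.5% for Sp110, 42.5% for Pml, 30.0% for Sp100, 24.0% for Nmi, 9.64% for Daxx and 6.12% for Sp140, so Sp110 stayed highest. There the class was also the largest of Pml, whose protein-coding isoforms held 31.5%.

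The tables list 56 isoforms of the 6 genes, 10 of them at 0 aligned counts in both libraries, and 34 held at least 5% of their gene's TPM. Sp110-204, a retained-intron isoform, carried the largest part of Sp110 with 102.81 and 126.78 TPM, or 41.2 ± 2.51% of the gene. Both other retained-intron isoforms, Sp110-202 and Sp110-209, held 20.5% and 11.6%. Sp110-201, its only isoform annotated as protein coding, had 30.47 and 22.50 TPM, or 9.65 ± 2.87%, and 20.7% in the alignment-free tables. The processed transcripts Sp110-203 and Sp110-205, which have no annotated reading frame, held 7.01% and 6.87%.

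Sp140 and Daxx were each led by 1 protein-coding isoform. Sp140-201 had 106.67 and 165.77 TPM, or 52.7 ± 2.96% of the gene, and Daxx-201 had 53.99 and 66.59 TPM, or 52.0 ± 0.91%. In the alignment-free tables they held 30.2% and 36.4%, still the largest share of each gene, ahead of Sp140-206 at 23.6% and Daxx-208 at 28.0%. The retained-intron isoform Sp140-204 had 37.63 and 47.88 TPM, and Sp140-202, which is annotated as a target of nonsense-mediated decay, had 29.39 and 42.95 TPM. All 3 of these Sp140 isoforms were higher in replicate 2. The protein-coding Sp140-206 held 8.74% and the processed transcript Sp140-203 held 7.60%. For Daxx, the protein-coding isoforms Daxx-208 and Daxx-202 held 17.4% and 11.6%, and its retained-intron isoform Daxx-209 had 18.78 and 13.34 TPM.

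Sp100 and Pml were spread over more forms. Sp100-213, protein coding, had 46.74 and 28.44 TPM, or 13.8 ± 2.93%, and the retained-intron isoform Sp100-205 had 42.92 and 31.50 TPM, or 13.8 ± 1.13%. Of the other 7 Sp100 isoforms above 5%, Sp100-210 held 13.0%, Sp100-208 12.0%, Sp100-201 11.9%, Sp100-202 9.80%, Sp100-206 7.33%, Sp100-204 6.82% and Sp100-209 6.33%. Sp100-208 and Sp100-206 are annotated as retained intron, Sp100-209 as a target of nonsense-mediated decay and the rest as protein coding. By share of counts Sp100-209 held 17.5% of the gene and Sp100-202 held 18.7%. Sp100-203 and Sp100-207 were listed at 0 in both libraries by alignment but at 19.6 and 22.9 TPM and at 35.5 and 36.0 TPM in the alignment-free tables. Pml was led by the short retained-intron isoform Pml-208, with 15.39 and 12.85 TPM or 23.1 ± 1.11%, followed by the protein-coding Pml-202 with 14.40 and 10.98 TPM. Pml-211 held 17.8%, Pml-201 16.0% and Pml-212 6.43%, and the retained-intron Pml-210 had 8.26 and 3.61 TPM. The aligned count of Pml-201 in replicate 1 was 631 with a posterior SD of 183, which is 29.0% of it, although the count of the whole gene carried a posterior SD of 0.

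Short isoforms weigh more in TPM than in reads. By share of counts, the retained-intron class held 8.27% of Sp100, 11.5% of Pml, 7.04% of Sp140, 5.42% of Nmi and 4.31% of Daxx, but 77.7% of Sp110, whose 2 main retained-intron isoforms are 2293 and 2310 bases long. Pml-208, at 481 bases, held 23.1% of the TPM of Pml and 2.26% of its counts. Nmi-205 led Nmi with 5.61 and 4.68 TPM, or 51.8 ± 9.96%, ahead of Nmi-202 at 21.3%. The retained-intron isoform Nmi-203, at 1.99 and 1.29 TPM, rested on 7.89 and 5 counts, and Nmi-204 had 0 counts in replicate 1 and 3.98 in replicate 2.

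**Figure D3:**
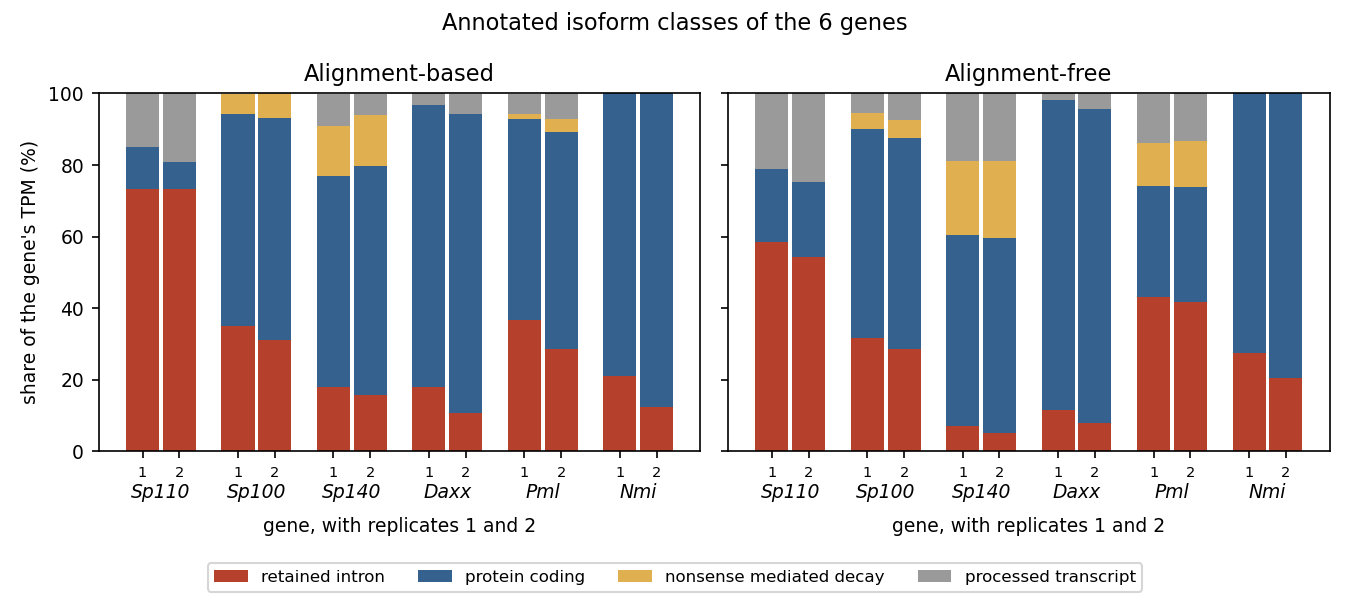
Share of each gene's TPM (%) held by annotated isoform classes in replicates 1 and 2, from the alignment-based tables (left) and the alignment-free tables (right). Retained-intron isoforms (red) hold 73.3% of Sp110 on average by alignment and between 14.2% and 33.0% of the other 5 genes.

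Sp110, Sp140 and Sp100 lie side by side within 133100 bases of chromosome 1. Sp110 runs on the minus strand and Sp140 and Sp100 on the plus strand. By the gene positions given above, the starts of Sp110 and Sp140 face away from each other across 1560 bases, and 4950 bases separate the end of Sp140 from the start of Sp100. The other RefSeq start of Sp110, at base 85603891, lies inside Sp140 and leaves no such gap. The gap of 1560 bases holds Gm16094, a gene annotated as antisense whose function is not given in the annotation. Gm16094 had 80.36 TPM from 242 counts in replicate 1 and 179.89 TPM from 537 counts in replicate 2, a log2 ratio of 1.28 (1.06 to 1.51), past 2-fold where 4.01% of the 13227 genes were higher in replicate 2 by that much. The alignment-free tables gave it 160 and 323 TPM and a ratio of 0.97, which is not past 2-fold. The ratio of Sp140 beside it was 0.60 by alignment and 0.56 without.

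Genes on the opposite strand overlap the family members. Gm10552 lies inside Sp140 over 7812 bases and had 11.45 and 18.51 TPM, with a ratio of 0.98 (0.57 to 1.41), and 37.9 and 55.9 TPM with a ratio of 0.50 in the alignment-free tables. Gm17017 overlaps Sp140 by 3816 bases and the start of Sp100 by 598 bases, and had 24.88 and 31.69 TPM from 916 and 1062 counts. Whether counting used strand is not stated in the labels or headers. The part of Gm10552 and Gm17017 in the Sp140 and Sp100 levels was not tested. Counts rest on transcripts, so an overlap of gene spans alone does not show that reads are shared. Gm17017 transcripts held 783 of the 3402 short sequence words of Sp140 transcripts, which are described below. The posterior SD of the aligned count was 10.13 and 10.93 for Gm17017. For Gm10552 it was 4.88 and 3.56, of 75.51 and 136.92 counts. Beyond Sp100, at 7084 bases, A630001G21Rik had 67.12 and 57.00 TPM with a ratio of -0.09 by alignment, but 415 and 310 TPM in the alignment-free tables. The alignment-free value in replicate 1 was above all 3 family members. That in replicate 2 was level with Sp100, also at 310 TPM, and below Sp140 and Sp110. Farther along, Cab39, which codes for a scaffold of the LKB1 kinase, had 14.42 and 20.05 TPM, and Itm2c had 5.38 and 4.36 TPM. Of the 27 annotated genes in the cluster and the 300 kb on either side, Sp110, Sp140 and Sp100 included, 8 had 10 aligned TPM or above in both libraries, 18 were under 2 TPM in both and 7 had no aligned count in either. The alignment-free tables gave 13, 10 and 3 such genes, and put Gm25472, annotated as a miRNA and without an aligned count, at 414 and 388 TPM.

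**Figure D4:**
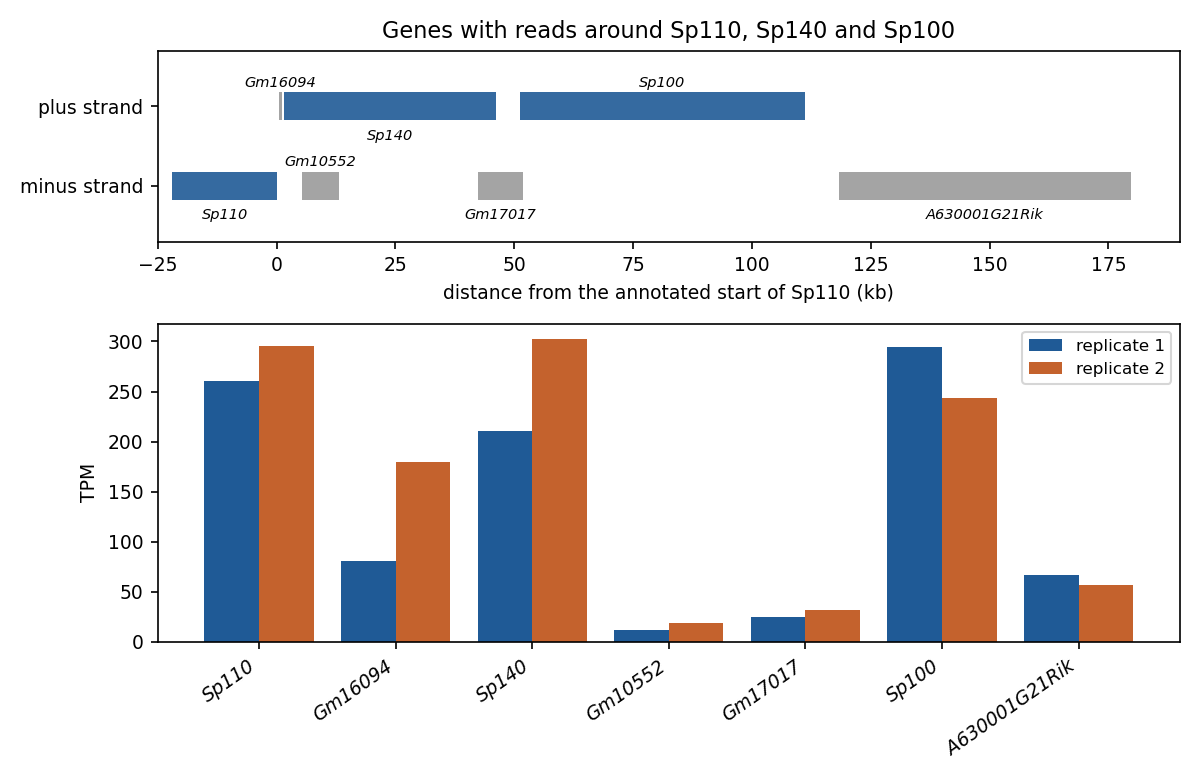
Position of the genes around Sp110, Sp140 and Sp100 by strand, as distance in kb from the annotated start of Sp110 (upper panel), and their aligned TPM in replicates 1 and 2 (lower panel). In these alignment-based values the 3 family members stand above the antisense gene Gm16094, at 80.36 and 179.89 TPM, and above A630001G21Rik, at 67.12 and 57.00 TPM, which the alignment-free tables do not repeat.

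Transcripts of the family share sequence with other genes, near copies and overlapping genes among them, which bears on how reads were assigned. Of all 31-base words in annotated Sp140 transcripts, 67.8% also occurred in transcripts of 14 other genes. For Sp110 the share was 55.5%, spread over 3928 other genes, and for Sp100 it was 9.20%, over 2656. Pml had 2.58%, over 1200 other genes, Daxx 0.153% and Nmi 0%. Sp140 shared 916 words with Arhgef12, a gene on chromosome 9 with 817 and 447 counts, 783 with the overlapping Gm17017, 723 with the pseudogene Gm5831 on chromosome 9, which had 27.5 and 56.4 counts, and 649 with A530032D15Rik on chromosome 1, which had 619 and 791 counts. Sp110 shared 2468 words with the pseudogene Gm16026, which received only 10.4 and 12.0 counts, 511 with C130026I21Rik, which had 342 and 500 counts, and 348 with G530012D18Rik, which overlaps it and had none. The posterior SD that the alignment-based program gave for the gene count was nevertheless small: 11.8 and 13.0 counts for Sp140, or 0.251% and 0.201% of its count, and under 4 counts for Sp110 and Sp100. For Pml, Daxx and Nmi it was 0. Levels of Sp140 and Sp110 are uncertain to the extent that this assignment is, and near copies are named here by shared letters alone.

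Daxx has its own close neighbour on chromosome 17, Tapbp, which codes for the tapasin chaperone of class I peptide loading and begins 308 bases past the end of Daxx. Tapbp had 151.34 and 205.91 TPM with a ratio of 0.43, beside 105.08 and 126.42 TPM and a ratio of 0.32 for Daxx. Zbtb22 also begins close by, 313 bases past the end of Daxx, on the same strand and inside the span of Tapbp. It had 8.63 and 11.44 TPM with a ratio of 0.48. BC051226, annotated as an RNA from a bidirectional promoter on the other side of Daxx, had 5 counts in each library. No other annotated gene with counts overlapped Pml or Nmi.

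The proteins that build or use the bodies were covered by 4 lists holding 55 genes, of which 54 reached 1 TPM in both libraries, 42 reached 10 TPM and 6 reached 100 TPM, or 10.9%, compared with 4 of the 6 body genes themselves. The SUMO machinery, 18 genes for adding SUMO, removing it or recognising its chains, had a median of 21.3 ± 1.04 TPM. Its protease gene Senp3 had 89.80 and 42.78 TPM although its counts, 806 and 677, gave a log2 ratio of only -0.12. Rnf111, which codes for a ubiquitin ligase that recognises SUMO chains, averaged 60.9 ± 2.35 TPM, and the E1 subunit gene Sae1 was lowest at 3.64 TPM.

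Among 10 genes of histone H3.3 and its chaperones, the median was 31.1 ± 4.39 TPM. Atrx, the partner of Daxx, averaged 135 ± 26.3 TPM beside 116 ± 15.1 TPM for Daxx. Atrx was higher in replicate 1, at 153.28 against 105.08 TPM, and lower in replicate 2, at 116.15 against 126.42 TPM. Morc3, which codes for an ATPase of the bodies, averaged 137 ± 31.3 TPM, and H3f3b, an H3.3 gene, 97.0 ± 19.3 TPM. Asf1b, which codes for a chaperone of newly made histones, was lowest with 3 and 2 counts.

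Of 14 genes for proteins that visit the bodies, the median was 19.0 ± 1.69 TPM. Mdm2, the ubiquitin ligase gene of p53, stood far above the rest with 327.84 and 442.15 TPM, and the deubiquitinase gene Usp7 averaged 88.8 ± 9.53 TPM. The kinase gene Hipk1 had 22.87 and 51.25 TPM, a log2 ratio of 1.27. The 13 genes of NMI partners and interferon signalling had the highest median of the 4 lists, 78.5 ± 1.58 TPM. Stat2 averaged 386 ± 24.0 TPM and the interferon regulatory factor gene Irf1 366 ± 11.4 TPM. Ifi35, whose protein binds NMI and which was picked after its values were seen, had 77.34 and 79.58 TPM, against 9.53 and 10.45 TPM for Nmi. Stat5a had 30.16 and 80.22 TPM, a ratio of 1.22, and its near-identical neighbour Stat5b was lowest at 5.11 and 5.28 TPM. Whether reads were split between Stat5a and Stat5b was not tested. Of the 54 partners with enough counts, Hipk1 and Stat5a were the 2 that passed 2-fold, both higher in replicate 2, where 4.01% of all genes tested did so.

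**Figure D5:**
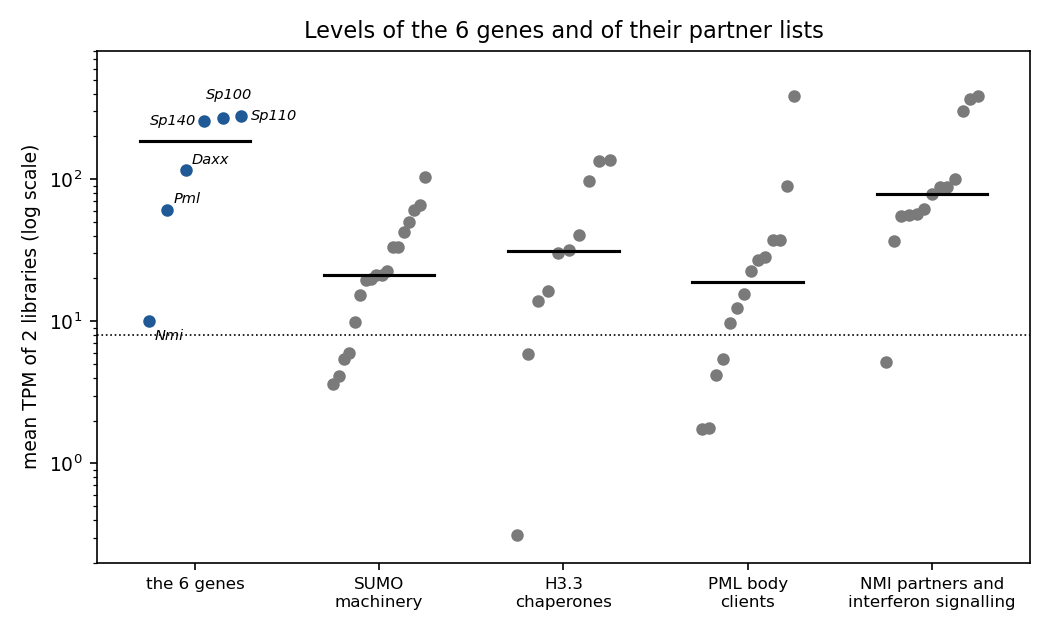
Mean TPM of 2 libraries on a log scale for the 6 genes (blue) and for the members of 4 partner lists (grey), with bars at the median of each list and a dotted line at the median of expressed protein-coding genes, 7.99 TPM. The 6 genes have a median of 186 TPM, and the interferon list has the highest partner median at 78.5 TPM.

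In the 4 values given by 2 libraries and 2 programs, the protein-coding gene closest to Pml was Pmm2, at a distance of 0.092 on log2(TPM + 1). By the same measure Frmd4b was closest to Sp100 (0.227), Msr1 to Sp110 (0.104), Mdfic to Sp140 (0.294), Trim26 to Daxx (0.075) and Hps1 to Nmi (0.107). Sp140 had the most distant match of the 6. With 4 values per gene this is a description of level only.

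The libraries held 18388793 and 17640464 expected counts on annotated genes and 32760987 and 30332337 estimated counts in the alignment-free tables. All 10 macrophage markers reached 1 TPM in both libraries, with an aligned sum of 1467 TPM in replicate 1 and 1135 TPM in replicate 2. Their median log2 ratio was -0.47, and 3 of them were lower in replicate 2 past 2-fold, where 3.05% of all genes tested were. These were Adgre1 with 16807 and 6321 counts, Itgam with 2190 and 637, and Fcgr1 with 539 and 239, and their part in the spread of the 6 genes was not tested. Of 25 markers of B cells, T and NK cells, neutrophils, dendritic cells and fibroblasts, none reached 1 TPM in both libraries by alignment. The dendritic marker Zbtb46 passed that level in replicate 2 alone, with 0.61 and 1.04 TPM from 51 and 52 counts. Among fibroblast markers, Col1a1 had 15 and 39 counts and Col3a1 had 20 and 22. Together the 25 markers summed to 2.59 and 3.46 aligned TPM. No aligned count in either library was found for 13 of them, among them Cd3e and Ly6g. Without alignment, 7 of the 25 reached 1 TPM in both libraries, the highest being Cxcr2, a neutrophil marker without an aligned count, at 3.47 and 3.66 TPM.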

How the data were processed

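The deposited expected counts and TPM per gene and transcript rest on reads aligned to mm10 transcripts of GENCODE M21, per the submitters' description files. Their columns are named as RSEM names them, per the file headers, and include a deposited score for the precision of a count, the posterior SD. The deposited estimated counts and TPM of a second transcript table were made without alignment, with columns named as kallisto names them, per the file headers, and were summed per gene. Programs, versions and use of strand: not given in the sources used here.

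Spike-in, phiX174 and unnamed numbered entries were left out. With 1 group there was no contrast and no p-value. Expected counts were rounded, scaled by TMM (edgeR 4.0.16, R 4.3.3) with a prior count of 0.5 and compared as replicate 2 over replicate 1 where both libraries had 10 counts or above. Intervals are exact binomial at 95% and cover counting error only. Called means past 2-fold. The scaling and ratio were tested on simulated data. Alternatives were DESeq2 1.42.0 size factors, total counts, no count filter, a prior count of 2, the other program, TPM over protein-coding genes alone, shares of counts and each library left out. Other steps used Python 3.11.15 with pandas 2.3.3.

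The 6 genes, the lists and the tests were chosen with earlier results of these data known. Named are the 6 genes with every isoform at 5% or more of TPM, from each partner list the top 3 genes and the bottom 1 by mean TPM, partners past 2-fold, neighbours on chromosome 1 with counts, of which the lowest are given as counts, and for each gene the nearest protein-coding gene by Euclidean distance over log2(TPM + 1). Isoforms listed at 0 by 1 program, Ifi35 and the near copies were added after their values were seen. Some genes that this rule names are not reported here.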

Additional observations from a re-analysis of the deposited data

How the results depend on the processing

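The median level of the 6 genes, 186 TPM, was 214 TPM in the alignment-free tables and 688 TPM when TPM was scaled over protein-coding genes alone, and 158 to 185 TPM with 1 library left out. Its median percentile, 97.0 among protein-coding genes at 1 TPM, was 98.7 with no filter on level and 96.5 to 97.0 with 1 library left out. The count of genes past 2-fold was 0 under each of the 5 alternatives tried for it. Leaving out the count filter could not change it, because all 6 genes pass that filter. The median retained-intron share, 24.7% of TPM, was 7.65% by counts, 27.0% in the alignment-free tables and 22.2% to 28.0% with 1 library left out. In the alignment-free tables the list medians were 36.0 TPM for SUMO machinery, 40.5 TPM for H3.3 chaperones, 22.3 TPM for body clients and 84.7 TPM for NMI partners and interferon signalling. Over protein-coding genes alone they were 78.8, 116, 70.9 and 291 TPM in the same order of lists. With 1 library left out they ran from 21.8 to 23.2 TPM, from 28.0 to 34.2 TPM, from 17.7 to 20.1 TPM and from 77.3 to 79.6 TPM. The cause of these shifts was not tested, apart from the rescaling, which multiplies each TPM by 3.86 in replicate 1 and 3.57 in replicate 2. Of 78 values for single genes under alternatives, 51 stayed within the spread of the libraries or the counting interval and 27 left it. A library left out of a mean of 2 stays within 1 SD by construction, and the 6 ratios without the count filter repeat the main values. No paired analysis was possible because there is 1 group. With 123 and 113 counts, depth limits Nmi most.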
